A study of Caenorhabditis elegans with 4 samples.

Results

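The MATH and BTB domain genes of *Caenorhabditis elegans* were taken as all genes whose symbol is math, bath or btb followed by a number, and 114 of the 46890 nuclear genes in the RefSeq gene table (assembly WBcel235) met this rule. They comprised 43 bath genes, 49 math genes and 22 btb genes, of which 89 were annotated as protein-coding and 25 as pseudogenes. Their occupancy was read from chromatin immunoprecipitation followed by sequencing (ChIP-seq) of the heterochromatin protein HPL-2, made in wild-type N2 worms at the third larval stage (L3), a mixed population of males and hermaphrodites at 20 °C. The 4 samples were 2 libraries precipitated with the HPL-2 antibody SDQ2340, an affinity-purified rabbit polyclonal, and 2 input libraries that were not analysed here. The values are 3 lists of peaks, 1 from each ChIP replicate (20533 peaks in replicate 1 and 16490 in replicate 2) and 1 for the whole series (23530 peaks). Whole larvae were used, so a peak cannot be assigned to a tissue or to 1 sex, and the labels do not tell whether the replicates were separate cultures, so their spread may be technical. Peak lists do not show how deeply the libraries were sequenced, and a gene without a peak is a gene below an unknown threshold. MATH and BTB genes include near-identical copies, and the sources do not give how reads matching several copies were handled; its part in the counts was not tested.

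BTB domains let a protein bind the scaffold CUL-3 of a ubiquitin ligase, and MATH domains bind other proteins, so a protein with both can bring a substrate to the ligase for degradation. The names follow the domains: bath genes encode BTB and MATH domains, math genes MATH domains and btb genes BTB domains. The best known nematode member of this class, MEL-26, removes the katanin subunit MEI-1 after meiosis, and the many other copies form a family that expanded in the *Caenorhabditis* lineage. HPL-2 belongs to the heterochromatin protein 1 family, which binds histone H3 methylated at lysine 9, and in worms it is abundant on chromosome arms, where many expanded gene families lie.

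Most MATH and BTB genes were not occupied by HPL-2. A gene was called bound when its body plus 500 bp upstream touched a peak in all 3 lists. The gene table gives no strand, so genes were first counted as bound only where the call held whichever end is the start. By this count 13 of 114 genes were bound (11.4%), a further 7 were bound only if the end near the peak is the start, and 94 were not bound on either strand. The same count over all genes was 11.6%, and over all protein-coding genes and pseudogenes, the kinds to which the family belongs, it was 17.6%. Counted as bound on at least 1 strand, the values were 20 of 114 (17.5%) for the family, 17.1% for all genes and 24.0% for protein-coding genes and pseudogenes. The family thus stood level with all genes, whose median length is 196 bp against 1381.5 bp for the family, and below coding genes and pseudogenes by both counts. No test of this difference was made. The count rested on replicate 2, the list with the fewest peaks. Without it 21 genes were bound (18.4%, against 19.0% of all genes), with bath-35, btb-4, bath-20, bath-12, bath-44, btb-1, math-33 and bath-39 added, and without replicate 1 there were 14.

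By kind of gene, the counts depended on how strand was treated. Of the bath genes 8 of 43 were bound (18.6%), with none that depended on strand. Of the math genes 5 of 49 were bound (10.2%) and 4 more depended on strand, which brings them to 18.4%, level with the bath genes. None of the 22 btb genes was bound whichever strand, and 3 depended on strand (13.6%). Against these stand the 17.6% and 24.0% of all coding genes and pseudogenes by the same 2 counts, and no difference between the kinds was tested. A pair of other multigene families had shares close to that of the MATH and BTB genes by the count whichever strand: 23 of 222 fbxa genes, which encode F-box proteins of another class of ubiquitin ligase (10.4%), and 28 of 264 clec genes, which encode C-type lectins (10.6%). Counted on at least 1 strand, the shares lay further apart, at 19.4% for fbxa and 14.0% for clec genes, against 17.5% for the MATH and BTB genes.

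**Figure D1:**
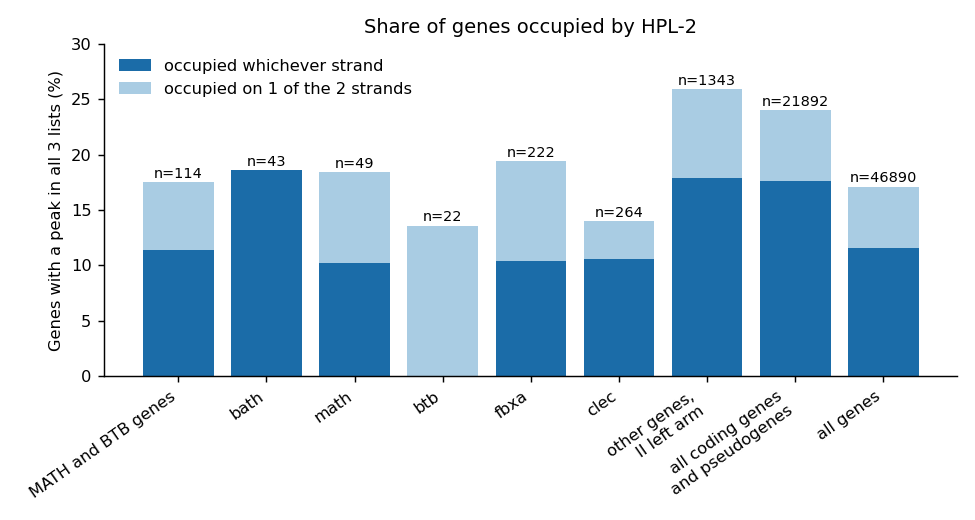
Share of genes with a peak in all 3 lists (%, vertical axis) for the MATH and BTB genes, their 3 kinds, 2 other families and background sets, with the number of genes above each bar. Dark bars are genes bound whichever strand, light bars those bound on 1 strand only; the family reaches 11.4% and 17.5%, against 17.6% and 24.0% for all coding genes and pseudogenes.

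Among the bath genes, bath-11 on the left arm of chromosome II had the highest mean cover of the 2 replicates, although bath-40 had more in replicate 1. Peaks filled 37.3% of its body in replicate 1, 38.2% in replicate 2 and 46.4% in the list of the whole series (replicates 37.7% ± 0.64, SD, n = 2). Both replicates were therefore alike at this gene, which is annotated as a pseudogene. It carried 4 peaks in replicate 1 and 5 in replicate 2, and the series-level peak with the highest score there ran from 1915406 to 1915762 on chromosome II (WS220; score above or equal to that of 91.0% of the list).

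The next by mean cover was bath-40 on the right arm of chromosome I, with 39.2% of its body in peaks in replicate 1 and 26.8% in replicate 2 (33.0% ± 8.77, SD, n = 2). Its widest peak was in the middle of the gene, 937 bp in replicate 1, where replicate 2 had 2 peaks of 341 and 230 bp. On the same arm, bath-34 had 30.2% in replicate 1 and 15.4% in replicate 2 (22.8% ± 10.5). A peak in the middle of bath-34, 513 bp wide in replicate 1 and 319 bp in replicate 2, ranked at the 93.1 and 90.7 percentile of score within the 2 replicate lists.

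Of the other bound bath genes, 3 had much more cover in replicate 1 than in replicate 2. bath-19 had 30.1% of its body in peaks in replicate 1 and 9.07% in replicate 2 (19.6% ± 14.9, SD, n = 2). bath-29 had 24.4% and 4.16% (14.3% ± 14.3), and bath-21, the longest gene of the family at 11724 bp, had 15.3% and 5.21% (10.2% ± 7.12). At these 3 genes replicate 1 was the higher, with 5, 6 and 7 peaks in the body, and replicate 2 had 3, 2 and 2. The table also places 3 other genes within bath-21, 2 pseudogenes and the cyclin gene cya-2, so its peaks are not its own alone. The replicates were closer at the remaining pair. bath-27 had 11.8% and 13.6% (12.7% ± 1.24) from a single peak, in the series-level list from 3359176 to 3359469 on chromosome II. That gene overlaps lido-14, and the same peak lies within 500 bp of the end of bath-29. bath-45, on the right arm of chromosome II, had 7.37% and 7.19% (7.28% ± 0.13), from 1 peak in each list.

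Among the math genes, math-38 had the highest mean cover of the 2 replicates, although math-46 had more in replicate 2. A series-level peak from 1578243 to 1579475 on chromosome II, 1233 bp wide, crossed its middle, and peaks filled 34.4% of the body in replicate 1 and 15.3% in replicate 2 (24.9% ± 13.5, SD, n = 2). Its scores were low, at the 17.3 percentile for that peak, 10.2 for replicate 1 and at most 31.3 for replicate 2. math-46 on the left arm of chromosome I went the other way between replicates, with 6.92% in replicate 1 and 35.8% in replicate 2 (21.4% ± 20.4). It had 1 peak in replicate 1 and 3 in replicate 2, and the table places a non-coding RNA gene, Y8G1A.3, over it.

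math-1 carried the peak with the highest score rank of the bound genes in the series-level and replicate 2 lists; in replicate 1 that of bath-34 ranked higher. It ran from 2046529 to 2047056 on chromosome II in the series-level list and ranked at the 96.0 percentile there, at 98.4 in replicate 2 and at 91.6 in replicate 1. The peak lay over 1 end of this short gene of 604 bp, most of it outside the body, and covered 15.4% and 25.8% of the body (20.6% ± 7.38, SD, n = 2). math-1 was also the 1 bound gene whose call was lost when the gene was narrowed by 150 bp, or when at least 100 bp of overlap was required in every list. math-11, a pseudogene, had 20.3% and 9.22% (14.8% ± 7.82). math-41 had the lowest mean cover of the bound genes, with 2.61% and 4.34% (3.47% ± 1.22), and its replicate peaks did not coincide: replicate 1 had a peak from 1826932 to 1827077 and replicate 2 one from 1826590 to 1826832. The other 12 bound genes had at least 54 bp in peaks of all 3 lists at once, and math-41 had none.

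**Figure D2:**
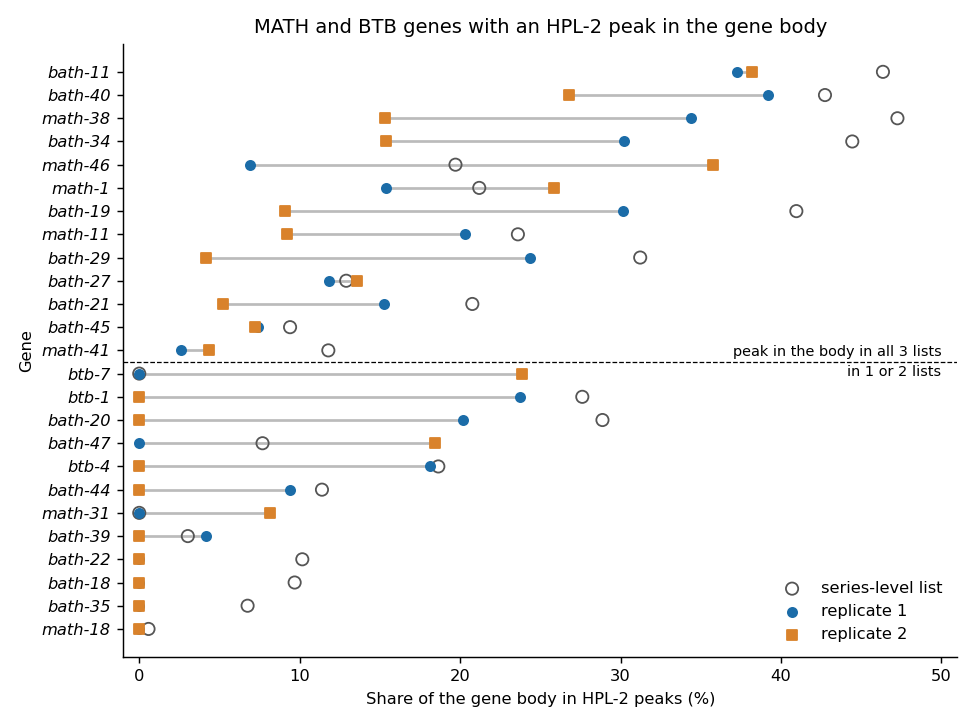
Share of the gene body in HPL-2 peaks (%, horizontal axis) for each MATH or BTB gene with a peak in its body in any list; filled circles are replicate 1, squares replicate 2, open circles the series-level list, and a line joins the replicates. The 13 genes above the dashed line had a peak in all 3 lists, from bath-11 (37.7% on average) to math-41 (3.47%); below it, every gene is at 0 in at least 1 list.

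Peaks on bound genes were mostly of low score. The 13 bound genes had 35 peaks in their bodies in replicate 1, with a median score at the 24.7 percentile of that list and a median width of 246 bp, against 258 bp for the whole list. In replicate 2 they had 27 peaks, at a median percentile of 38.3 and a median width of 212 bp against 231 bp. With the gene body split into 3 equal parts, the midpoints of 14 of 35 peaks in replicate 1 (40.0%) and of 12 of 27 in replicate 2 (44.4%) lay in the middle part. Only bath-34, bath-11, bath-21 and math-1 were still bound when each list was restricted to peaks at or above its median score. These make up 3.51% of the family, against 6.75% of all genes under the same limit, and the difference was not tested.

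The 7 genes whose call depends on strand all had their peak beyond a gene end in at least 1 list. A peak between math-7 and math-8 served both: it ran from 1886673 to 1887008 on chromosome II in the series-level list, 194 bp from math-7 and 201 bp from math-8, and both replicates had a peak at the same place. math-18 had a high-scoring peak of the series-level list at its edge, from 2155214 to 2155808 on chromosome II, at the 93.1 percentile of score in that list, with 85.4 for replicate 1 and 97.8 for replicate 2. btb-14, on the right arm of chromosome II, had a peak 780 bp wide within 59 bp of its body, from 12382625 to 12383404, at the 92.0 percentile of the series-level list. It overlaps the chemoreceptor gene sre-42 in the table. math-45, btb-22 and btb-4 made up the rest.

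In btb-4 the lists differed in place: the series-level and replicate 1 peaks, of 173 and 168 bp, lay within the gene, and the replicate 2 peak lay 197 bp outside it. The farthest peak that still counted was that of btb-22, 379 bp from the gene in replicate 1. The nearest genes to miss the rule were btb-9, whose closest peaks lay 515, 516 and 531 bp away in the series-level, replicate 1 and replicate 2 lists, and bath-12, at 420, 406 and 541 bp.

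Another 12 genes had a peak in the body in 1 or 2 lists only, btb-4 and math-18 among them. In the series-level and replicate 1 lists, but not in replicate 2, were btb-4, bath-20, bath-44, btb-1 and bath-39. bath-20, next to bath-19, had 20.2% of its body in replicate 1 peaks, and btb-1, a pseudogene on chromosome III, had 23.8% from 1 peak of 302 bp. bath-47 was in the series-level list and replicate 2, with 18.4% of its body in replicate 2 peaks. bath-35, bath-22, math-18 and bath-18 had a peak in the series-level list alone, and btb-7 (23.9%) and math-31 (8.16%) in replicate 2 alone. The remaining 89 genes (78.1%) had no peak in the body in any list, against 67.6% of all protein-coding genes and pseudogenes.

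These 89 included 19 of the 22 btb genes. The btb genes are the shortest of the family, with a median length of 1170 bp against 1580 bp for bath and 1681 bp for math genes. None of btb-2, btb-3, btb-5, btb-6, btb-8, btb-9, btb-10, btb-11, btb-12, btb-13, btb-15, btb-16, btb-17, btb-18, btb-19, btb-20 and btb-21 had a peak in its body. btb-14 and btb-22 had none in the body either and count among the 7 genes that depend on strand.

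Gene length moved with the calls. The bound genes had a median length of 2609 bp and those bound on neither strand 1290 bp (1290.5), and 11 of the 13 bound genes were longer than 2 kb. Genes were set beside others of like length, in 4 classes that each hold about as many protein-coding genes and pseudogenes (divided at 1157, 1922 and 3439 bp). In the shortest class 1 of 29 MATH and BTB genes was bound (3.45%), against 4.93% of other coding genes and pseudogenes on the left arm of chromosome II and 7.89% of all. In the second class 1 of 50 was bound (2.00%), against 9.81% and 9.18%. In the third class 6 of 22 were bound (27.3%), against 24.6% and 14.3%. In the longest class 5 of 13 were bound (38.5%), against 49.3% and 39.1%. The counts of short genes were thus below both backgrounds and those of the third class above both, with 1 to 6 bound genes behind each share.

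**Figure D3:**
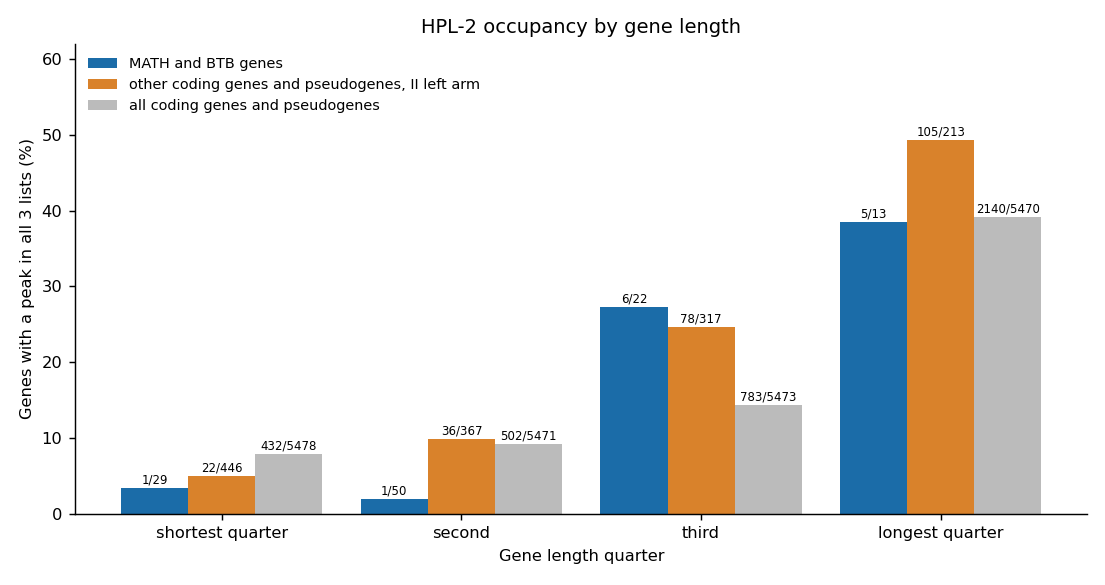
Share of genes with a peak in all 3 lists whichever strand (%, vertical axis) by class of gene length, shortest to longest (horizontal axis), with bound and total genes above each bar. MATH and BTB genes (blue) are at 3.45% and 2.00% in the 2 shorter classes and at 27.3% and 38.5% in the 2 longer ones.

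The family is concentrated on the left arm of chromosome II, the first of 3 equal parts of that chromosome, which held 91 of the 114 genes. Of these 9 were bound (9.89%) and 15 on at least 1 strand (16.5%). Other protein-coding genes and pseudogenes on the same arm were bound in 241 of 1343 cases (17.9%), and 25.9% on at least 1 strand. Peaks filled 2.53% of the body of the family genes on this arm in replicate 1 and 1.93% in replicate 2 on average (2.23% ± 0.42, SD, n = 2), against 6.58% and 5.94% for the other genes (6.26% ± 0.45). In both replicates the family value was under that of the other genes. The SD between replicates does not measure the spread between genes, and no test was made. The family genes were also shorter, with a median of 1280 bp against 1591 bp.

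The share of other genes that were bound depended on the stretch of the arm. From the first to the last MATH or BTB gene on the arm, 170 of 738 other coding genes and pseudogenes were bound (23.0%), above the 17.9% of the arm, with a mean cover of 8.42% in replicate 1 and 8.19% in replicate 2. The 100 kb windows that hold most of the family, in classes set after values were seen, had lower counts. Of 50 windows of 100 kb, 6 held 5 or more MATH and BTB genes, 74 in all. Other coding genes and pseudogenes in these 6 windows were bound in 9 of 160 cases (5.63%). In the 6 windows with 1 to 4 family genes the count was 19 of 174 (10.9%), and in the 38 windows with none it was 213 of 982 (21.7%). The median share of a window in peaks was 3.76% in replicate 1 and 3.07% in replicate 2 for the windows with 5 or more, and 7.99% and 4.20% for those with none. It was highest for the windows with 1 to 4, at 9.96% and 8.05%, so cover did not fall steadily with the number of family genes. The ranges overlapped: windows with none ran from 1.23 to 42.1% in replicate 1, and windows with 5 or more from 1.72 to 9.37%.

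**Figure D4:**
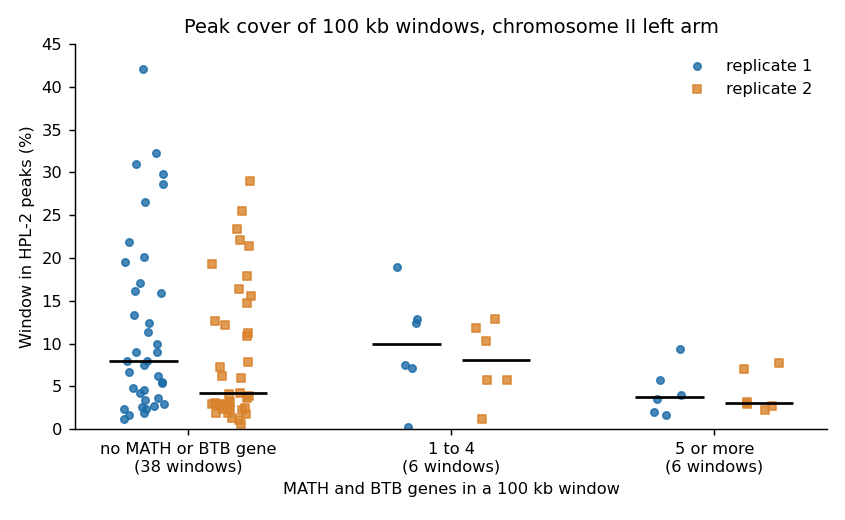
Share of each 100 kb window on the left arm of chromosome II that lies in HPL-2 peaks (%, vertical axis), by the number of MATH and BTB genes in the window (horizontal axis); circles are replicate 1, squares replicate 2 and black lines medians. Windows with 5 or more of the genes stay under 10%, while windows with none reach 42.1% in replicate 1.

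Many of the genes lie side by side. Over all chromosomes, with neighbours joined over gaps of up to 10 kb, 88 of 114 genes fell into 16 groups of 2 or more and 26 stood alone. In groups 9 of 88 were bound (10.2%), and alone 4 of 26 (15.4%), beside 11.6% of all genes and 17.6% of all coding genes and pseudogenes. Groups and single genes also differ in where they lie, so these shares do not separate grouping from location, and no difference was tested. Bound genes occurred in 5 of the 16 groups, and 6 groups, with 19 genes between them, had no peak of any list over their whole span. All but 2 of the 16 groups lie on the left arm of chromosome II: the bound gene bath-34 is grouped with bath-35 on chromosome I, and btb-19 with btb-20, without a peak, on the right arm of chromosome II.

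The largest group, 25 genes over 62.3 kb from math-15 to bath-22, had 2 bound genes, math-11 and bath-11, and 2 that depended on strand, math-7 and math-8. Its other genes were math-5, math-6, math-9, math-10, math-12, math-13, math-14, math-16, math-17, math-22, math-23, math-24, math-25, math-30, math-31, bath-2, bath-4, bath-6, bath-7 and bath-22 together with math-15. Of these, bath-22 and math-31 had a peak in the body in 1 list, and the rest in none. The 6 other coding genes and pseudogenes in this span were not bound either. Peaks filled 2.56% of the span in replicate 1 and 3.67% in replicate 2, against 10.6% and 7.96% for the whole arm.

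The second group, 12 genes from math-32 to bath-14, was more occupied in replicate 1 than in replicate 2. Peaks filled 13.8% of its 39.0 kb in replicate 1 and 5.11% in replicate 2, and bath-21, bath-19 and math-1 were bound. In this group bath genes with many peaks stood beside bath-1, bath-3 and bath-5, which had none. The third group, 8 bath genes from bath-28 to bath-8, had 8.46% and 4.73% of its span in peaks, with bath-29 and bath-27 bound and 3 of its 8 other coding genes and pseudogenes bound too. bath-23, bath-10, bath-9 and bath-8 of this group lay together with 4 other coding genes or pseudogenes in a stretch of 20048 bp without a peak in any list, from 3370367 to 3390414 on chromosome II.

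Several other stretches without a peak in any list held runs of the family. From 1875770 to 1886629 on chromosome II, 10860 bp held math-13, math-16, math-17, math-5, math-6 and math-7 and no other coding gene or pseudogene. From 1759853 to 1793214, 33362 bp held math-28, math-27, math-26, math-3 and math-4, with 8 other coding genes or pseudogenes. From 1892744 to 1912326, 19583 bp held math-25, math-24, math-23, math-22 and math-30, with 3 others. The stretch from 2087514 to 2148061, with math-42, math-35, math-37 and 13 others, was 60548 bp long and the second longest of 1582 on this arm, whose median was 733 bp. Stretches over 5 kb held 67 of the 91 family genes on the arm whole (73.6%), against 772 of the 1343 other genes (57.5%). These shares largely restate how many genes had no peak in the body in any list, which was 81.3% and 65.8%. Any such gene lies whole in a stretch without a peak. Shorter genes also fit more easily, and median lengths were 1280 bp for the family and 1591 bp for the others.

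Genes of the family were less often at a peak than other genes of the arm, yet more often within 5 kb of one in both replicates. In replicate 1, 12.1% had a peak in the body, against 23.8% of other coding genes and pseudogenes, and in replicate 2 the shares were 13.2% and 25.4%. Within 1 kb the shares were 34.1% and 41.0% in replicate 1, and 33.0% and 39.5% in replicate 2. Within 5 kb the order was the opposite, at 72.5% and 67.7% in replicate 1 and 75.8% and 68.7% in replicate 2. In the series-level list the shares within 5 kb were close, at 78.0% and 77.3%. The median distance to a peak was larger for the family, at 3006 bp against 1999 bp in replicate 1 and 2592 bp against 2034 bp in replicate 2. These values are descriptions, and no test of their difference was made.

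**Figure D5:**
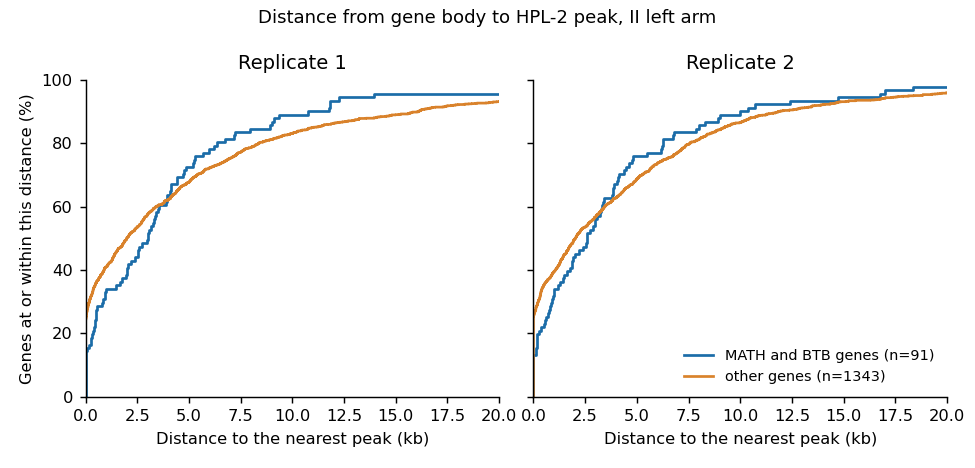
Cumulative share of genes on the left arm of chromosome II (%, vertical axis) whose body lies at or within a given distance of the nearest HPL-2 peak (kb, horizontal axis), in replicate 1 (left) and replicate 2 (right). The blue curve of the 91 MATH and BTB genes starts lower than the orange curve of the 1343 other genes (12.1% against 23.8% at a distance of 0 in replicate 1) and is above it at 5 kb in both.

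The 23 genes outside the left arm of chromosome II included 4 bound ones (17.4%), against 17.6% of other coding genes and pseudogenes outside that arm. On at least 1 strand the shares were 21.7% and 23.9%. The lower share of the family was thus seen mainly on the left arm of chromosome II. Of the 5 on chromosome I, math-46, bath-34 and bath-40 were bound, and all 5 lie on its arms, where other coding genes and pseudogenes were bound in 44.6% of cases on the left and 29.9% on the right. bath-35 there had a peak of the series-level list alone, and bath-25 none. On the right arm of chromosome II bath-45 was bound, btb-14 depended on strand, and the neighbours btb-19 and btb-20 were not bound. None of the 8 genes in the central parts of chromosomes was bound: they were btb-2, bath-44 and bath-38 on chromosome II, bath-41, bath-15 and bath-42 on chromosome III, and math-33 and bath-39 on chromosome V. Other coding genes and pseudogenes in those 3 centres were bound in 6.23, 7.89 and 6.39% of cases. All 13 bound genes thus lay on chromosome arms, as did 106 of the 114 genes. The remaining genes, btb-5 and btb-1 on chromosome III, bath-37 on chromosome IV, btb-21 and bath-36 on chromosome V and the pseudogene math-43 on X, were not bound.

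Genes that work with BTB proteins were described next to the family, from a list of 21 gene symbols of the CUL-3 pathway. Of these symbols 20 were found in the gene table, and uba-3 was not found under that name. Of the 20 genes found 6 were bound, beside a share of 17.6% over all coding genes and pseudogenes, and the difference was not tested. ppfr-1, a phosphatase regulatory subunit, had 33.7% of its body in peaks in replicate 1 and 15.2% in replicate 2. cand-1, which exchanges substrate adaptors on cullins, had 21.6% and 12.9% (17.2% ± 6.14, SD, n = 2). The signalosome subunit genes csn-4 (11.2% ± 5.81) and csn-1 (2.55% ± 0.853), the neddylation gene dcn-1 (6.54% ± 3.65) and the phosphatase gene pph-4.1 (6.47% ± 3.53) were bound with less cover. The scaffold gene cul-3, the ring subunit gene rbx-1, the ubiquitin-like modifier gene ned-8, and mei-1 and mei-2, which encode the katanin subunits, had no peak in the body in any list. mel-26 had 7.93% of its body in peaks in replicate 1 and none in replicate 2. All 6 bound genes were longer than 3439 bp, in the longest class, where 39.1% of coding genes and pseudogenes were bound. Of the listed genes, csn-2, csn-3 and cul-3 were in this class too and were not bound.

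Of 11 BTB domain genes with names outside the family, mel-26 among them, 4 were bound: kel-8, kel-1, kel-3 and spop-1. Over all coding genes and pseudogenes the share was 17.6%, and the difference was not tested. The 4 bound genes are 6519 to 17045 bp long, in the longest class, where 39.1% of coding genes and pseudogenes were bound. In this class too, eor-1 and gcl-1 were not bound and ivns-1 depended on strand. kel-8, a kelch-repeat gene of 17045 bp on chromosome V, had 39.9% of its body in peaks in replicate 1 and 31.9% in replicate 2 (35.9% ± 5.65, SD, n = 2), close to the highest values within the family. spop-1 had 28.2% and 12.2% (20.2% ± 11.3). eor-1, hpo-9 and kel-20 had no peak in the body in any list.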

How the data were processed

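Larvae were ground and crosslinked with EGS and formaldehyde, per the labels' protocols. HPL-2 ChIP-seq peak lists were analysed: 1 per ChIP replicate and 1 for the series, grouped by sample titles. The submitters' processing notes name BWA and the build ce10. Peaks were called with MACS on WormBase WS220 coordinates, per the file headers and source column; the sources used here do not give the version, threshold, control, handling of reads that match several gene copies, and the way the series-level list was made. Scores deposited by the authors, of unstated scale, served to rank peaks, or filter them, inside 1 list.

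Genes came from the RefSeq table (WBcel235), which gives no strand. Peaks and genes are on different builds, whose shift was taken to be under 150 bp; calls were repeated with genes widened, narrowed and shifted by 150 bp, and no gene coordinates are printed. A gene was bound with at least 1 bp of overlap in every list, counted for both possible strands. Cover is the share of the gene body in peaks, since the planned gene interval needs strand. Chromosomes were split into 3 equal parts up to the largest peak end, the outer parts being the arms.

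Named genes are the 12 with most cover, the 5 bound ones with least, those in the series-level list but not in both replicates, the largest group, all unbound btb genes and the bound CUL-3 pathway genes, by rule; others were chosen after their values were seen, as were the window classes and the limit of 5 kb for stretches. Members and lists were chosen with earlier results of these data known. Counts are descriptions without a test, because the lists hold no read counts. With 200 genes planted in simulated lists over 9868 genes, 200 were recovered with 0 false calls. These genes were spaced so that a planted peak could not touch a neighbour, and planted peaks began inside gene bodies. The run therefore checked the overlap code only, and not the upstream flank, the strand or closely packed genes. Python 3.11.15, pandas 2.3.3 and numpy 2.4.6 were used.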

Additional observations from a re-analysis of the deposited data

How the results depend on the processing

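Of 163 alternative settings over 18 results, 118 kept the count within 1.5 times or the value within the replicate SD, 45 did not, and none reversed. All 18 results are counts or shares, which cannot change sign, so the lack of reversals says little. The build difference had little effect on the family count. With genes widened by 150 bp, 15 were bound (math-45 and btb-14 added), and with genes narrowed 12 (math-1 lost). With the table shifted left 14 were bound (math-45 and btb-14 added, math-1 lost), and shifted right 13. The btb genes went from 0 to 1 when widened or shifted left. With genes narrowed, the share of all genes fell to 7.90%, against 10.5% for the family. The family was thus level with all genes in the main count but not with genes narrowed. Narrowing leaves the intervals for the 2 strands of a very short gene without a shared base. Median lengths are 196 bp for all genes and 1381.5 bp for the family, and the part of length in this change was not tested. Counted on at least 1 strand, 20 family genes, 9 math, 3 btb and 43 fbxa genes were bound. The 500 bp at both gene ends alone gave 0 family, bath, math and fbxa genes, 3 clec genes and 1470 of all genes; 500 bp either side of both ends gave 0 family, bath and math genes, 3 fbxa and 7 clec genes. These fell by construction, since a peak was needed at both ends; a peak at 1 end was found in 9 and 13 family genes. With 50% of the gene interval covered, 0 family, bath, math and fbxa genes, 1 clec gene and 443 of all genes were bound. With peaks at or above the median score, counts were 4 family (3.51%), 3 bath, 1 math, 14 fbxa, 13 clec and 3165 of all genes (6.75%). Mean cover of family genes was then 1.08%, against 2.68%. The series-level list alone gave 25 family, 16 bath, 2 btb, 48 fbxa, 53 clec and 10290 of all genes. With one replicate list left out, family genes numbered 14 (without replicate 1) to 21 (without replicate 2), bath 9 to 13, math 5 to 6, btb 0 to 2, fbxa 29 to 39, clec 38 to 41, CUL-3 pathway 6 to 8, other BTB genes 5 to 6 and all genes 6227 to 8919; mean cover was 2.29 to 3.08% for the family and 5.22 to 8.66% for all genes, median cover 0 to 0%, and peaks in the middle part of the gene 40.0 to 44.4%. All 13 bound genes remained bound without either replicate. This holds by construction, since a call needs a peak in every list used, and counts can only stay or rise with fewer lists required. Mean cover of the family was 3.54% with 500 bp added on both sides and 3.32% round the gene ends. The share of peaks in the middle part of the gene was 42.2%, 50.6% by any overlap and 45.5% in the series-level list. Where a cause is not stated above, the cause was not tested.

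No paired analysis was possible because values of the 2 input libraries were not analysed here, so that no second group carries the numbers of the ChIP replicates. Promoter base composition and peak position in the direction of transcription were not run, since sequences and strand were not used here. Without read counts, every value rests on peaks above an unknown threshold.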

Other observations

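Annotated pseudogenes of the family were bound in 2 of 25 cases (8.0%), math-11 and bath-11, and protein-coding members in 11 of 89 (12.4%). Over all annotated genes, 10.4% of pseudogenes and 18.3% of protein-coding genes were bound. The pseudogene bath-11 had the highest mean cover of the 2 replicates of any member, and its 4 neighbours bath-4, bath-6, bath-7 and bath-2 lay whole, with 2 other coding genes or pseudogenes, in a stretch of 10328 bp without a peak in any list, from 1915763 to 1926090 on chromosome II (WS220). bath-6 is itself annotated as a pseudogene.

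Of the 13 bound genes 8 had more cover in replicate 1 and 5 in replicate 2. Over the 21 family genes with a peak in the body in at least 1 replicate, cover in the replicates was weakly correlated (Pearson r 0.21, Spearman rho 0.15). Ranks by mean cover therefore rest on replicates that differ at many genes.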
